A study of Mus musculus with 8 samples.

Results

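Rex1 is the zinc finger protein that the mouse gene Zfp42 encodes, and YY1 is the older relative from which its gene is thought to have arisen by retroposition. All probe sets that the platform annotation gives to Zfp42 or Yy1 alone were taken, each on its own. There were 5 of them, 1 for Zfp42 and 4 for Yy1, among 45037 probe sets that were not controls. No probe set listing several genes included either one, and Yy2, the remaining mouse relative, had 0 probe sets of its own.

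The arrays came from mouse embryonic stem cells grown as a monolayer on gelatin. There were 4 groups, whose 2 arrays the series text calls biological replicates: Rex-1 knockout cells of the J1 strain without leukemia inhibitory factor (LIF), the same cells with LIF, J1 wild-type cells without LIF, and J1 wild-type cells with LIF. KO below means the arrays labelled Rex-1 knockout and J1 the arrays labelled wild type. J1 is a line of male mouse embryonic stem cells, and LIF is the cytokine that keeps such cells undifferentiated in culture. A period of 12 hours without LIF stands in an extraction text that all 8 arrays share. One label of the KO arrays without LIF, on growth, speaks of LIF in the medium; the titles and the treatment field, which were followed here, give its absence. The labels state neither how many clones the knockout cells represent nor which bases of Zfp42 they lack. The titles of the arrays of a group differ by the letter r, which no label explains, so a p-value here reflects only how far arrays of a group differ. They are called the first array (no r) and the second array (r).

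REX1 and YY1 are C2H2 zinc finger factors whose finger regions are closely alike, and both bind DNA. YY1 is found in nearly all cell types, recruits chromatin regulators, acts within the INO80 remodelling complex and helps to hold enhancers next to promoters. Zfp42 is switched on in the early embryo, the placenta, the germ line and cultured embryonic stem cells, and it is widely used as a marker of the undifferentiated state. In mouse embryonic stem cells the REX1 protein is known to bind Tsix, the antisense partner of Xist, and it is degraded through the ubiquitin ligase RNF12, which the gene Rlim encodes. OCT4, SOX2 and NANOG are known to act on the Zfp42 promoter, which holds an octamer motif.

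The promoters of both genes are shown because several factors measured below act on that of Zfp42. Each runs from 250 bases before to 50 bases after the RefSeq start, on the strand of the gene, in build GRCm38.p6. Zfp42 lies on the minus strand at chr8:43306960-43307259, and Yy1 on the plus strand at chr12:108793047-108793346. Capitals mark the octamer (ATTTGCAT or its reverse complement ATGCAAAT) and the GC box (CCGCCC or its reverse complement GGGCGG), searched on both strands with overlapping matches counted.
Zfp42: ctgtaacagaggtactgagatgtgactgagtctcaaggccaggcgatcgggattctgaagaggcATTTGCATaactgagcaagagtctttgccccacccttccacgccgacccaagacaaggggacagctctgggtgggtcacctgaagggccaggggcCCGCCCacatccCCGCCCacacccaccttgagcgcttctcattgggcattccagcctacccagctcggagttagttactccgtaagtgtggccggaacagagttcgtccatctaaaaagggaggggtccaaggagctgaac
Yy1: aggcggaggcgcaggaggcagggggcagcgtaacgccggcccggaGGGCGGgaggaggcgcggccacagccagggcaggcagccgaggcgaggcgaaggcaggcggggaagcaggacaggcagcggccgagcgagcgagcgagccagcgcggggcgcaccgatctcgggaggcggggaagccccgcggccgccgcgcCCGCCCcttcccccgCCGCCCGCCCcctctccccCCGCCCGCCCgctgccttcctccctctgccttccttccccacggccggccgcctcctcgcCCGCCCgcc
The Zfp42 window held 1 octamer, from base -186 to base -179 relative to the start, and 2 GC boxes, with 57.7% G or C. The Yy1 window held 0 octamers and 7 GC boxes, with 81.0% G or C, against a median of 52.7% over all promoters. Of 32851 RefSeq promoters of this length, 1.74% held the octamer and 35.7% a GC box. A match is a description of the letters and does not show a bound site. The arrays bear on the transcripts, not on these windows.

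Across the series, the 8 arrays had median signals of 114.2 to 143.5, and each had the same trimmed mean of 500. The 7 embryonic stem cell markers averaged 12.91 to 13.30 log2 units in every array, with Pou5f1 between 13.23 and 13.57. The summed signal of 8 fibroblast or feeder markers was 1379 to 2749 in 6 arrays. It was 10802 and 10650 in the first J1 arrays without and with LIF, where Acta2 and Tagln reached 12.24 log2 units each. These actin-related genes made up most of the high sums: the highest value of any other marker on that list was 9.26 log2 units, for Col1a2. The 6 extraembryonic endoderm markers summed to 613 to 992 and the 5 trophoblast markers to 334 to 634. The part of these markers in the results below was not tested. Fewer cells of a type and less RNA per cell cannot be told apart in bulk arrays. In all 7 contrasts, limma called 0% of the 43439 probe sets tested at an adjusted p under 0.05, so no gene below passed that threshold. At an unadjusted p under 0.05, limma gave 5.02% of probe sets for KO against J1 with LIF, 3.68% without LIF and 5.27% averaged over LIF. The same share was 3.61% for LIF withdrawal in J1, 4.07% in KO, 4.02% averaged over genotype and 3.55% for the interaction.

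The targeted gene was read first. Zfp42 has 1 probe set, 1418362_at (NM_009556, chromosome 8), and it was bright in every array. Its signal was 17139 and 16729 in the KO arrays without LIF, and 17997 and 17283 in the KO arrays with LIF. It was 18217 and 20563 in the J1 arrays without LIF, and 18483 and 23255 in the J1 arrays with LIF. All 4 KO arrays lay below all 4 J1 arrays, yet the gap was narrow, and every KO array was far above the median signal of its array. The group means were 16934 ± 290 and 17640 ± 505 in KO without and with LIF, against 19390 ± 1659 and 20869 ± 3375 in J1 without and with LIF (SD, n = 2 each). The J1 groups overlapped each other, and KO with LIF stood above KO without LIF by less than the spread of either J1 group.

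**Figure D1:**
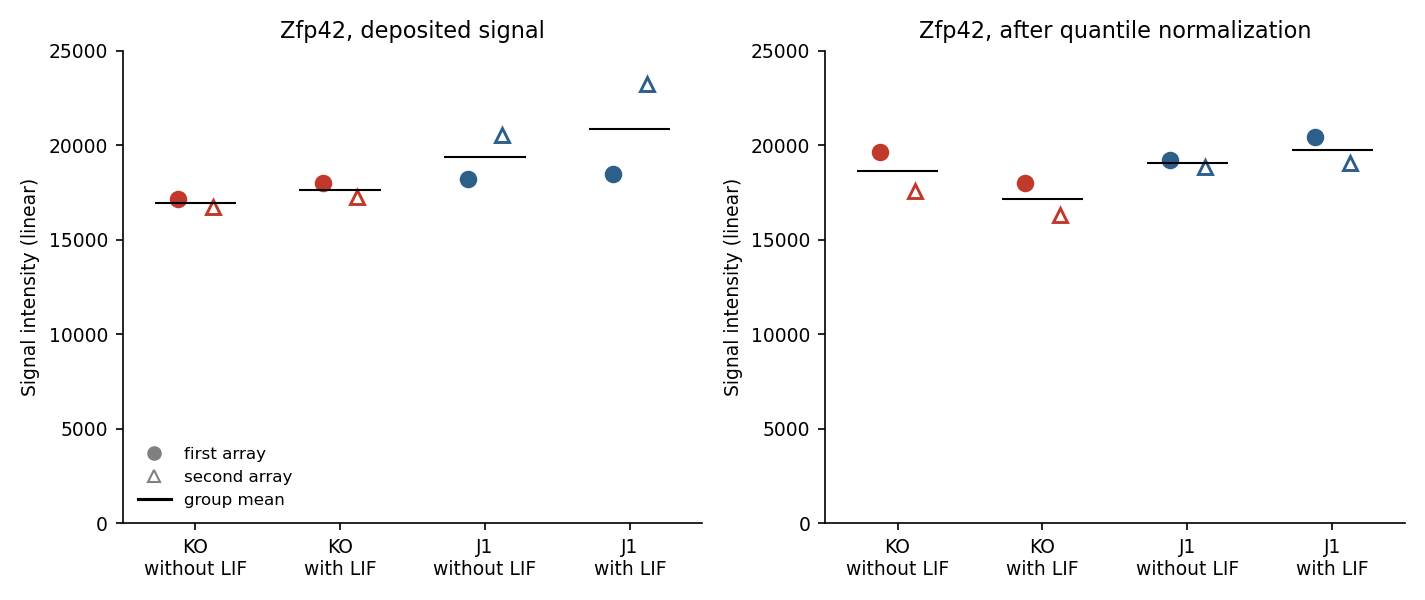
Signal intensity of the Zfp42 probe set in the 8 arrays, as deposited (left) and after quantile normalization of all probe sets (right), both on linear axes that start at 0. Circles are first arrays, triangles second arrays and lines the means of 2 arrays; the KO arrays lie below the J1 arrays on the left (at most 17997 against at least 18217), and the groups overlap on the right.

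Averaged over LIF, the KO signal was 0.863 times the J1 signal (95% confidence interval 0.650 to 1.15), a log2 difference of -0.21 (SE 0.16; limma adjusted p = 0.985). The difference was -0.19 without LIF and -0.23 with LIF (SE 0.23 each). A share of 1.74% of all probe sets tested had every KO array below every J1 array, and 2.46% of the 6516 whose mean log2 was 10 or more. In a two-sided exact permutation test of 4 against 4 arrays the averaged difference gave p = 0.0286, the smallest that 70 regroupings allow, and 0.286 after Benjamini-Hochberg adjustment over 10 tests. That test takes no account of first and second arrays; in a fit with a replicate block by array (r or no r) the difference had an SE of 0.14 (limma adjusted p = 0.784). The position of the probes relative to the deletion is not stated in the labels, and probes outside it would not check the genotype.

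The size of the Zfp42 difference depended on which arrays were compared. Among the second arrays, KO minus J1 was -0.30 without LIF and -0.43 with LIF. Among the first arrays it was -0.088 and -0.038. Most other bright probe sets were also lower in KO over all arrays. Over the 272 others whose mean log2 was 14 or more, the median KO minus J1 difference was -0.12 over all arrays, and 96.7% were lower in KO. Their median was -0.23 among the second arrays and -0.0086 among the first. Over the 764 with a mean log2 of 13 or more the median was -0.072, with 78.7% lower in KO, and it was -0.17 among the second arrays and 0.022 among the first. Zfp42 was also set against the median of the 272 probe sets in each array, a comparison chosen after the values were seen. Its averaged KO minus J1 difference was then -0.10 (SE 0.22, limma adjusted p = 1.00). The difference was -0.21 with LIF and 0.0043 without. After quantile normalization the Zfp42 signal was 19663 and 17604 in KO without LIF, 18002 and 16282 in KO with LIF, 19232 and 18856 in J1 without LIF, and 20412 and 19071 in J1 with LIF. The first KO array without LIF then exceeded 3 of the 4 J1 arrays. The averaged difference became -0.12, with p = 0.114 in the exact permutation test.

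**Figure D2:**
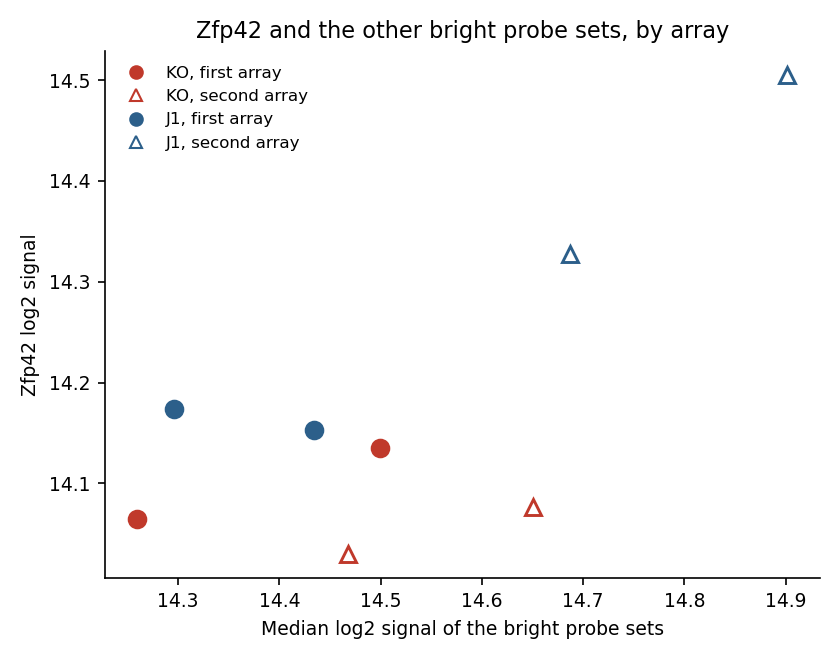
Log2 signal of Zfp42 in each array (vertical axis) against the median log2 signal of 272 other probe sets whose mean log2 was 14 or more (horizontal axis). Colours give the genotype label and shapes the first or second array; the second J1 arrays are highest on both axes, at 14.33 and 14.51 for Zfp42.

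LIF withdrawal left Zfp42 with a log2 difference of -0.059 in KO and -0.099 in J1 (SE 0.23 each), without LIF minus with LIF. Averaged over genotype it was -0.079 (SE 0.16, 95% confidence interval -0.49 to 0.33; limma adjusted p = 1.00), and after quantile normalization it was 0.034. The arrays without LIF spanned 16729 to 20563 and those with LIF 17283 to 23255, so the conditions overlapped. The interaction, the withdrawal difference in KO minus that in J1, was 0.040 (SE 0.33).

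Yy1 lies on chromosome 12 and was measured by 4 probe sets. Of these, 1422569_at (BI665246) had signals of 6348 and 4668 in KO without LIF, 6345 and 4910 in KO with LIF, 5975 and 5167 in J1 without LIF, and 6203 and 4780 in J1 with LIF. The genotypes overlapped fully, and in each group the second array was the lower. The averaged KO minus J1 difference was 0.0031 (SE 0.21, 95% confidence interval -0.52 to 0.52). LIF withdrawal averaged over genotype gave -0.0036 (SE 0.21). The first interval runs from 0.700 to 1.44 times the J1 signal, so it does not show that the levels were equal. That interval counts the difference between first and second arrays as spread. In the fit with a replicate block the SE of the same KO minus J1 difference was 0.13.

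The probe set 1422570_at, listed under the same accession, had signals of 419 and 293 in KO without LIF, 403 and 226 in KO with LIF, 402 and 400.2 in J1 without LIF, and 391 and 339 in J1 with LIF. The first arrays agreed within a narrow range, and the second KO arrays were the lowest of all 8. Its averaged KO minus J1 difference was -0.23 (SE 0.25, 95% confidence interval -0.87 to 0.40). Among the second arrays it was -0.45 without LIF and -0.58 with LIF, and among the first 0.058 and 0.042. LIF withdrawal averaged over genotype gave 0.18 (SE 0.25).

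The probe set 1435824_at (BM236739) varied least, with signals of 525 and 566 in KO without LIF, 539 and 570.2 in KO with LIF, 536 and 517 in J1 without LIF, and 535 and 626 in J1 with LIF. The genotypes overlapped, and the highest and the lowest array were both J1. The averaged difference was -0.0053 (SE 0.15, 95% confidence interval -0.39 to 0.38). LIF withdrawal averaged over genotype gave -0.081 (SE 0.15).

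The dimmest probe set, 1457834_at (BM935653), had signals of 233 and 253 in KO without LIF, 268 and 228 in KO with LIF, 225 and 301 in J1 without LIF, and 264 and 285 in J1 with LIF. The genotypes overlapped, at 228 to 268 in KO and 225 to 301 in J1, and the highest arrays were J1. The averaged difference was -0.13 (SE 0.18, 95% confidence interval -0.57 to 0.32), and LIF withdrawal averaged over genotype gave -0.051 (SE 0.18). Among the second arrays KO minus J1 was -0.25 without LIF and -0.32 with LIF, and among the first 0.047 and 0.018. Over the 5 probe sets and 7 contrasts, 0 of 35 limma tests had an unadjusted p under 0.05, beside 3.55% to 5.27% of all probe sets by contrast. The smallest was 0.246, for Zfp42, and the largest difference was -0.27, for 1422570_at with LIF. The interactions ran from -0.065 to 0.11.

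**Figure D3:**
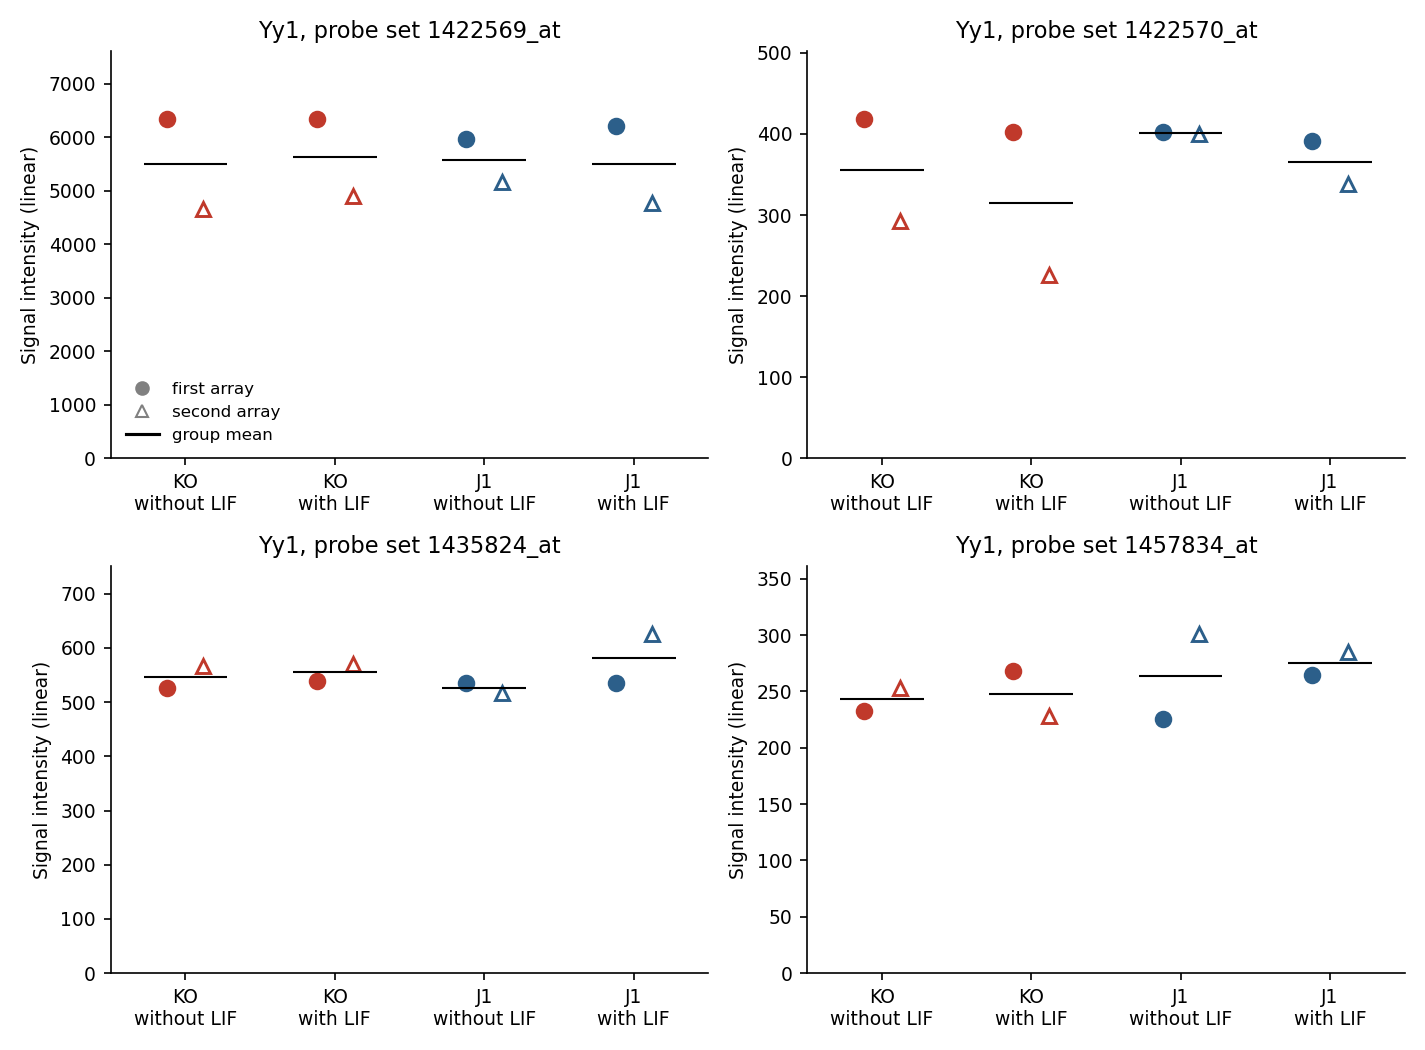
Signal intensity of the 4 Yy1 probe sets in the 8 arrays, each on its own linear axis from 0, with first arrays as circles, second arrays as triangles and lines at the means of 2 arrays. In the upper panels every second array is below its first; in the lower panels most second arrays are above, and the KO and J1 arrays overlap in all 4.

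**Figure D4:**
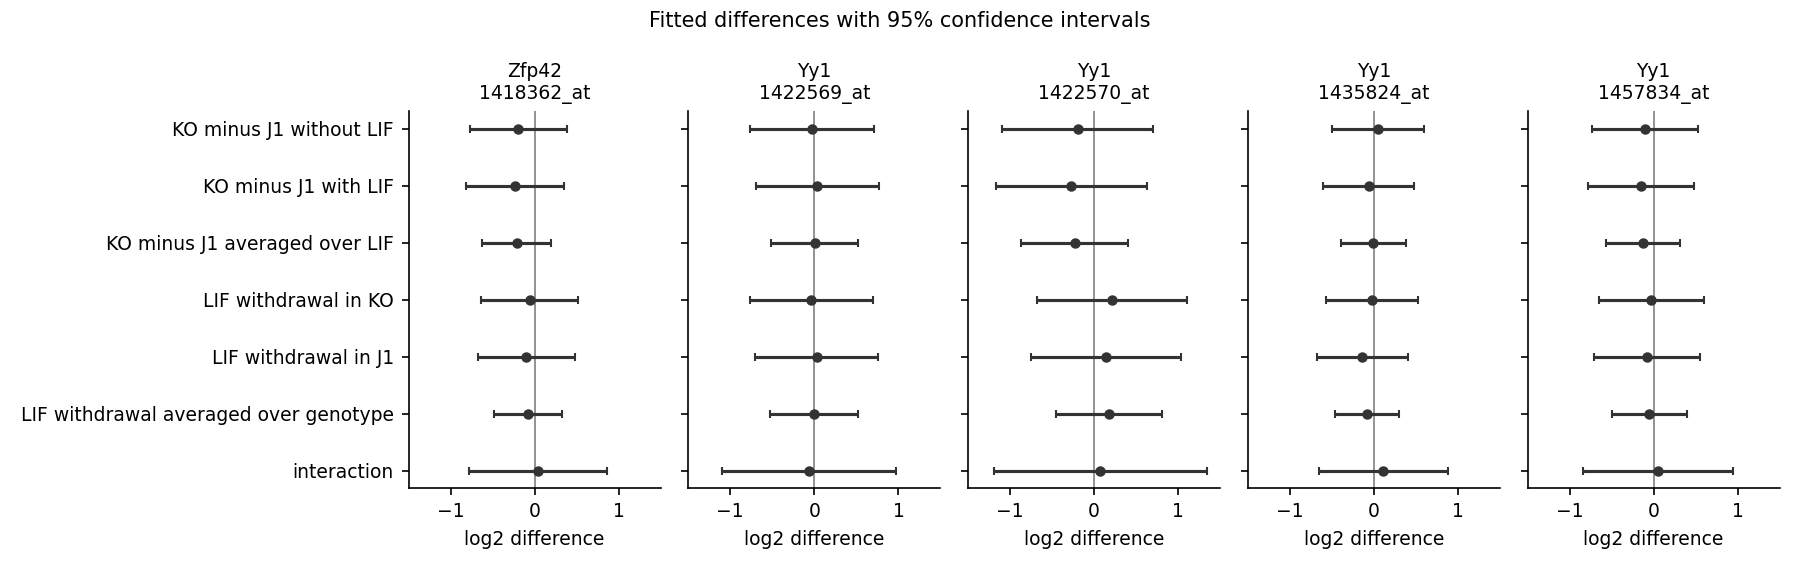
Fitted log2 differences of the 5 probe sets (panels) in the 7 contrasts (down the page), with bars for the 95% confidence intervals from limma. All 35 intervals include 0.

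At the Yy1 probe sets of accession BI665246, the second array was the lower in all 4 groups. The second minus first log2 difference of 1422569_at was -0.44 and -0.37 in KO without and with LIF, and -0.21 and -0.38 in J1 without and with LIF. For 1422570_at it was -0.52, -0.83, -0.0079 and -0.21 in the same groups. A second array lower in all 4 groups occurred at 11.2% of all probe sets tested and at 22.1% of those whose mean log2 was 10 or more. The 2 remaining Yy1 probe sets were lower in the second array in 1 group each, so probe sets of 1 gene did not share an array order. At 1435824_at the differences were 0.11, 0.080, -0.051 and 0.23, and at 1457834_at 0.12, -0.23, 0.42 and 0.11. Zfp42 was lower in the second KO arrays, at -0.035 and -0.058, and higher in the second J1 arrays, at 0.17 and 0.33.

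**Figure D5:**
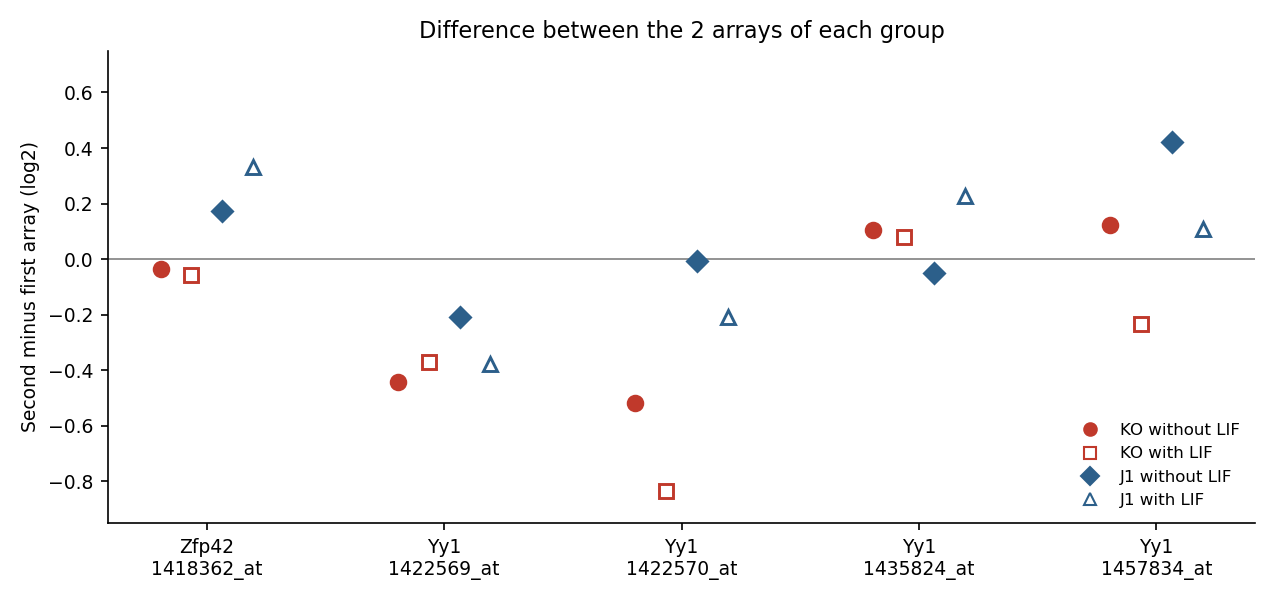
Log2 difference between the second and the first array of each group (vertical axis) for the 5 probe sets. All 4 groups lie below 0 for 1422569_at and 1422570_at, and Zfp42 lies below 0 in KO and above 0 in J1.

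Across the 8 arrays, 10 pairs of these probe sets were compared. The Yy1 probe sets 1422569_at and 1422570_at had Pearson's r = 0.72 (exact permutation p = 0.0266, adjusted 0.200) and Spearman's rho = 0.86 (exact permutation p = 0.0107, adjusted 0.107). Without the 2 arrays farthest from the median r was 0.74, and it was 0.39 within the 4 first arrays and 0.42 within the 4 second arrays. Zfp42 and 1457834_at had r = 0.71 (exact permutation p = 0.0399, adjusted 0.200) and rho = 0.60 (exact permutation p = 0.132, adjusted 0.331). That r was 0.25 without the second J1 arrays, so it rested on them, and 0.42 and 0.78 within the first and the second arrays. Zfp42 and the brightest Yy1 probe set, 1422569_at, had r = -0.30 (exact permutation p = 0.490, adjusted 0.683) and rho = -0.071 (exact permutation p = 0.882, adjusted 1.00). Without the second J1 arrays r was 0.67, and it was -0.56 within the first and 0.27 within the second arrays, so the pair kept no sign. The pair 1422569_at and 1435824_at, both Yy1, had r = -0.66 (exact permutation p = 0.0639, adjusted 0.213) and rho = -0.62 (exact permutation p = 0.115, adjusted 0.331). The r of the other 6 pairs lay between -0.55 and 0.47. No pair passed the adjustment.

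The genes with the pattern most like Zfp42 were sought over 8 arrays among 13637 probe sets of 1 gene whose mean log2 was 8 or more. They were Eef1b2, a translation elongation factor subunit (Pearson's r 0.979), Eif4g2, a translation initiation factor (0.967), Preb (0.958), Nedd4, a ubiquitin ligase (0.957), and Fam136a (0.956). Their KO minus J1 differences ran from -0.39 to -0.18, and 40 probe sets in all reached r of 0.9. For Yy1, by 1422569_at, they were Zcchc7 (0.988), Morc3 (0.983), Poldip3 (0.983), Klf9, a Krüppel-like factor (0.983), and Ints2, an Integrator subunit (0.980), with 316 of 13635 probe sets at r of 0.9. All 5 of these were lower in the second arrays on average, with log2 differences of -1.37 to -0.33. They were chosen by likeness to 1422569_at over the same arrays, so that direction is part of the choice and not a separate result. The same holds for the lower KO values of the genes like Zfp42. Arrays share their processing, so these values describe likeness over 8 arrays. By Spearman's rho, 2 of the 5 for Zfp42 and 1 of the 5 for Yy1 stayed among the top 5.

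The factors listed as acting on Zfp42 or its product were all 6 measured, among them Rlim, whose product acts on the REX1 protein. By the averaged KO minus J1 difference 3 were higher and 3 lower, with a median of 0.059 against 0.016 over all probe sets. Of the 6, 0 had an unadjusted limma p under 0.05, beside 5.27% of all probe sets. With arrays centred on their medians, which shifts every difference by 1 constant, the median was -0.017 against -0.061 over all probe sets. The differences were -0.081 (SE 0.15) for Pou5f1, which encodes OCT4, -0.100 (SE 0.17) for Sox2, 0.30 (SE 0.22) for Nanog and -0.35 (SE 0.35) for Rlim. By LIF withdrawal 5 of 6 were lower, with a median of -0.18 against -0.0067 over all probe sets. Klf4 and Esrrb had an unadjusted limma p under 0.05, as did 4.02% of all probe sets. Klf4, a Krüppel-like factor and LIF target, had a difference of -0.85 (SE 0.24; limma adjusted p = 1.00), and its log2 signal was 10.55 to 11.51 without LIF and 11.78 to 12.28 with LIF. Esrrb, a nuclear receptor of the naive state, had -0.42 (SE 0.17, limma adjusted p = 1.00), at 10.80 to 11.29 without LIF and 11.31 to 11.83 with LIF. How many of all probe sets were likewise separate between the LIF conditions was not counted.

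Of 7 genes listed for a tie to REX1 or YY1 binding or, for Mbtps2, to Yy2, 6 were measured. By the averaged difference 5 of them were lower in KO, with a median of -0.25 against 0.016 over all probe sets. The share of all probe sets lower in KO was not counted. For Tsix and Mbtps2, counted as lower, the difference was smaller than its SE. The count was the same after quantile normalization. Centring arrays on their medians lowers every averaged KO minus J1 difference by 1 constant, so the 5 lower genes had to stay lower there. Xist, the RNA that silences an X chromosome, had 353 to 427 signal units in the 4 KO arrays and 820 to 1322 in the 4 J1 arrays at probe set 1436936_s_at. Its difference was -1.46 (SE 0.20; limma adjusted p = 0.564), with an unadjusted p under 0.05, as at 5.27% of all probe sets. It was -1.31 among the first arrays and -1.61 among the second. The dim Xist probe sets 1427262_at and 1427263_at, at 3.68 to 112 units, gave -0.26 (SE 0.99) and -0.39 (SE 0.82), with overlapping genotypes. Tsix had -0.022 (SE 0.41). Peg3 and Gnas, imprinted genes with known YY1 sites, also had every KO array below every J1 array, a pattern found at 1.74% of all probe sets. The difference was -0.35 (SE 0.18) for Peg3 at 1433924_at and -0.59 (SE 0.25) for Gnas at 1450186_s_at. Gnas signals were 1859 to 2180 in the 4 KO arrays, against 4063 and 3752 in the first and 2447 and 2490 in the second J1 arrays without and with LIF. Its difference was thus -0.96 among the first arrays, where the J1 arrays had the high fibroblast or feeder sums of 10802 and 10650, and -0.23 among the second; the part of those markers was not tested. For Peg3 at 1433924_at the difference was -0.15 among the first arrays and -0.55 among the second. Of the other Peg3 probe sets, 1417355_at (mean log2 9.82) had -0.65 (SE 0.23) and 1417356_at (8.55) had -0.34 (SE 0.22), each with overlapping genotypes. The dim 1447731_at (2.76) had 0.63 (SE 0.61). The other Gnas probe sets ran from -0.043 to 0.67, at lower mean log2 values of 3.78 to 6.77. Tcstv1, a gene of cells resembling the early embryo, had 1.06 (SE 0.29, limma adjusted p = 0.871) at a low mean log2 of 5.02. By LIF withdrawal it had 0.83 (SE 0.29). Both had an unadjusted limma p under 0.05, as at 5.27% and 4.02% of all probe sets. Its KO minus J1 difference was 1.63 without LIF and 0.50 with LIF (SE 0.40 each). Mbtps2, in which mouse Yy2 is nested, had -0.16 (SE 0.20).

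No partner of YY1 passed the adjusted limma test, which no probe set on the arrays passed. All 14 INO80 subunits were measured, of which 8 were higher and 6 lower in KO, with a median of 0.044 against 0.016 over all probe sets. With arrays centred on their medians 5 were higher and 9 lower, and the median was -0.033 against -0.061 over all probe sets. Of the 14, 0 had an unadjusted limma p under 0.05 by either averaged contrast. The shares over all probe sets were 5.27% for KO against J1 and 4.02% for LIF withdrawal. With shares so low, a count of 0 among so few genes does not set these subunits apart. Actl6a, an actin-like subunit, had every KO array above every J1 array, with a difference of 0.16 (SE 0.15), as did 2.1% of all probe sets tested. The helicase subunits Ruvbl1 and Ruvbl2 had 0.044 (SE 0.15) and 0.11 (SE 0.16), and the ATPase Ino80 -0.023 (SE 0.28). Of 16 cofactors that bind YY1 15 were measured, 6 higher and 9 lower in KO (2 and 13 with centred arrays). Their median was -0.033 (-0.11 with centred arrays), and 0 had an unadjusted limma p under 0.05, beside the same shares over all probe sets. Among them Ep300, an acetyltransferase, had -0.12 (SE 0.23), Hdac1, a deacetylase, -0.10 (SE 0.15), Ctcf, the insulator protein, -0.016 (SE 0.18) and Yaf2, a YY1-associated Polycomb factor, -0.084 (SE 0.23).

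Of 9 other C2H2 factors of pluripotent cells 8 were measured, 3 higher and 5 lower in KO, with a median of -0.051. The signal of 7 of the 8 was lower without LIF (6 of 8 with arrays centred on their medians), with a median of -0.14. Klf4 was the only one with an unadjusted limma p under 0.05 there, as at 4.02% of all probe sets. The 3 nearest protein-coding genes on each side of Zfp42 in the RefSeq table include 3 that were measured. Of these Frg1 had a KO minus J1 difference of 0.10 (SE 0.15), Triml1 -0.23 (SE 0.29) and Adam26a, at a low mean log2 of 4.31, -0.94 (SE 0.89). All 6 neighbours of Yy1 were measured, 1 higher and 5 lower in KO (0 and 6 after quantile normalization or with centred arrays), with a median of -0.20. Wars, a tryptophan tRNA synthetase, had -0.11 (SE 0.15), Evl, an actin regulator, -0.42 (SE 0.50) and Slc25a29, a mitochondrial carrier, 0.029 (SE 0.22). Slc25a47 had -0.083 (SE 0.20), and the dim Eml1 had -0.49 (SE 0.52). Degs2, at a low mean log2 of 5.23, had 1.94 without LIF and -2.52 with LIF (SE 0.93 each; limma adjusted p = 1.00 and 0.956), which average to -0.29 (SE 0.66). None of the neighbours had an unadjusted p under 0.05 in the averaged contrasts, by limma, beside 5.27% (genotype) and 4.02% (LIF) of all probe sets.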

How the data were processed

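Gene expression was measured on 8 single-colour arrays, and the authors deposited signal intensity on a linear scale, 1 value for each probe set. GCRMA appears in the submitters' processing notes without a version or a role. Each deposited column has a mean of 500 after trimming 2% at both ends, and the columns have unequal distributions, so the step that made the values is not known.

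Intensities were taken to log2 with no pseudocount, and 43439 probe sets that reached a log2 of 4 in 2 or more arrays entered the fit, after 64 control probe sets were left out. A model with 1 mean per group over the 8 arrays was fitted with limma 3.58.1 in R 4.3.3, and p-values were adjusted by Benjamini-Hochberg over all probe sets for each of 7 contrasts, at a threshold of 0.05. The fit was tested on simulated data. Single probe sets were also tested with exact permutation tests written in Python 3.11.15 with numpy 2.4.6. The p-values of these tests were adjusted with scipy 1.17.1, and plots came from matplotlib 3.10.9. Precision is limited by the number of arrays.

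The platform annotation gives 34945 probe sets 1 gene symbol, 932 several and 9160 none. For a gene of a list, the probe set with the highest mean log2 was used. Other genes were named where they neighbour Zfp42 or Yy1, had an unadjusted p under 0.05 in an averaged contrast (at most 4 a list), define a list, or were among the 5 probe sets of highest Pearson's r. Promoter sequences and chromosomes come from RefSeq tables of GRCm38.p6. The members, lists and tests were chosen with earlier results of these data known. Alternatives covered the filter, normalization, pseudocount, variance prior, arrays in the fit, a replicate block by the letter r, and each array left out.

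Whether the letter r pairs arrays was checked: second-minus-first differences correlated between groups at 0.0496 to 0.198, and 2 of 6 pairs of groups lay under 0.1, so the planned fit has no block. Over probe sets with a mean log2 from 10 upward the correlations were 0.318 to 0.771, with 0 of 6 pairs under 0.1, so bright probe sets shared a difference between first and second arrays. The block is given as an alternative.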

Additional observations from a re-analysis of the deposited data

How the results depend on the processing

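No alternative brought a Zfp42 or Yy1 difference past the threshold: 0 of 552 tested alternative values had an adjusted p under 0.05 by limma, the smallest being 0.591 and the smallest unadjusted p 0.0683. The sign changed in 67 of them, all of differences that no test had called, and the cause was not tested. Changing the filter or the variance prior, or adding the replicate block, cannot change a difference, so no sign could change there. With quantile normalization the log2 difference became 0.019 for 1435824_at in KO minus J1 averaged over LIF, 0.12 and 0.034 for Zfp42 in LIF withdrawal in KO and averaged, and 0.0086 and 0.019 for 1422569_at in the same contrasts. With arrays centred on their medians it became -0.056 and -0.073 for 1422569_at in KO minus J1 with LIF and averaged, and -0.010 for 1435824_at without LIF. For LIF withdrawal in KO it became 0.0059 for Zfp42, 0.028 for 1422569_at, 0.040 for 1435824_at and 0.039 for 1457834_at, and averaged 0.046 for 1422569_at. With arrays centred on the 272 bright probe sets, chosen after seeing the data, Zfp42 had 0.0043 for KO minus J1 without LIF. It then had 0.15 for LIF withdrawal in KO and 0.045 averaged. In the first arrays alone, given without a test, Zfp42 had -0.038 for KO minus J1 with LIF and -0.063 averaged, and 1435824_at had 0.0029 for LIF withdrawal in J1 and -0.041 for the interaction. In the second arrays alone these were -0.43, -0.36, -0.28 and 0.27. The sign of KO minus J1 in the first arrays also differed from the fit over all arrays at Yy1 probe sets. At 1422570_at it was 0.042 with LIF and 0.058 without, and at 1457834_at 0.018 and 0.047. At 1435824_at it was 0.013 and -0.028, and at 1422569_at 0.087 without LIF. These signs are not among the 67, which cover tested alternatives only. A trend and robust prior called 1 probe set, 1438223_at, with no gene symbol listed, in KO minus J1 averaged over LIF (log2 difference 1.39, limma adjusted p = 0.0471). Each group has 1 first and 1 second array, so the replicate block by the letter r cannot change a difference, only its SE and p-value. With the block all 35 differences stayed on the same side of the threshold, with 0 calls over all probe sets. Leaving out each array in turn, where a lone array is assumed to vary like the others, gave the following ranges of log2 differences that crossed 0. For 1422569_at they were -0.11 to 0.11 for KO minus J1 averaged, -0.15 to 0.22 for KO minus J1 with LIF, -0.25 to 0.19 for KO minus J1 without LIF, -0.11 to 0.11 for LIF averaged, -0.16 to 0.22 for LIF in J1, -0.26 to 0.19 for LIF in KO and -0.29 to 0.16 for interaction. For 1422570_at they were -0.69 to 0.15 for KO minus J1 with LIF, -0.45 to 0.062 for KO minus J1 without LIF, -0.031 to 0.39 for LIF averaged, -0.20 to 0.63 for LIF in KO and -0.34 to 0.49 for interaction. For 1435824_at they were -0.062 to 0.052 for KO minus J1 averaged, -0.18 to 0.053 for KO minus J1 with LIF, -0.0024 to 0.10 for KO minus J1 without LIF, -0.078 to 0.029 for LIF in KO and -0.0019 to 0.23 for interaction. For 1457834_at they were -0.31 to 0.11 for KO minus J1 without LIF, -0.16 to 0.054 for LIF averaged, -0.29 to 0.13 for LIF in J1, -0.14 to 0.091 for LIF in KO and -0.16 to 0.26 for interaction. For Zfp42, whose averaged KO minus J1 difference stayed at -0.30 to -0.13, they were -0.16 to 0.0039 for LIF averaged, -0.26 to 0.067 for LIF in J1 and -0.13 to 0.21 for interaction. Depth cannot be judged, since no background or detection value was used.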
